A study of Mus musculus with 2 samples.

Results

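Proteasome subunit and assembly genes were described in MIN6, a mouse insulinoma line that secretes insulin. The cells had been transfected with lipid and either a vector expressing GR, the glucocorticoid receptor encoded by Nr3c1, or a control vector. The members were the protein-coding genes of the deposited all-gene table whose names begin with Psma, Psmb, Psmc, Psmd, Psme, Psmf or Psmg and a digit, which gave 49 of 21542 genes. Of these, 48 had a mean of at least 100 reads over both libraries, the minimum used for every count below. There was 1 RNA-seq library for the GR vector and 1 for the control vector, both from cells labelled as C57BL/6, and none of the differences was checked in replicates. The sources used here do not give the time from transfection to harvest, the share of cells transfected, any added glucocorticoid or the form of GR.

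The proteasome is the protease that degrades most ubiquitin-tagged proteins of the cytosol and nucleus. Its 20S core is a stack of rings of alpha and beta subunits, and some of the beta subunits cut peptide bonds. The 19S regulatory particle recognises tagged proteins, unfolds them with a ring of ATPases and feeds them into the core. Interferon replaces the cutting subunits with immunoproteasome forms, and dedicated chaperones help to build both particles. Beta cells make large amounts of secretory protein and rely on this route to clear misfolded proteins.

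The GR library held 18525668 reads over genes and the control library 18537326. Nr3c1 had 5202 reads with the GR vector and 2645 with the control vector, a fold of 1.97 with a 95% interval of 1.88 to 2.07. Folds throughout are GR over control after TMM scaling, and intervals are exact (Clopper-Pearson) and cover counting error only. All 10 beta cell markers examined were abundant, from 8140 to 373033 reads with the GR vector and from 8338 to 407986 with the control vector. By the library test described below, 1 of the 10 was higher and 4 were lower in the GR library, with Ins2, an insulin gene, at a fold of 0.917 (0.913 to 0.921); their part in the results was not tested. Of other cell types, Gcg and Sst, 2 of 5 markers of alpha, delta and PP cells, summed to 737 reads with the GR vector and 629 with the control vector. Immune markers (2 of 3 in the table) summed to 22 and 26 reads in the GR and control libraries, and those of fibroblasts and endothelium (2 of 4) to 73 and 63. Of the 5 exocrine markers, 0 were in the table. In bulk RNA, fewer cells with a transcript and less transcript per cell cannot be told apart.

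As a family, the proteasome genes differed little between the libraries. They held 83037 reads with the GR vector, 0.448% of that library (95% interval 0.445% to 0.451%), and 83417 reads with the control vector, 0.450% (0.447% to 0.453%). The median fold over the 48 members was 0.991, beside 1.00 over all 11070 genes at that read minimum. There were 23 members above a fold of 1 and 25 below. The range ran from 0.829 for Psmb9 to 1.15 for Psme2b. Among members with a mean of 1000 to 4000 reads, 94.3% lay within 1.1-fold, against 91.9% of the 3989 genes in that range.

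By the 1.1-fold limit, 5 of 48 members were higher with the GR vector, where 10.7% of all genes were. Another 5 were lower, where 10.4% of all genes were. Both counts lay near those shares. The limit fell between Psmb8, just past it at a fold of 0.905, and Psmd1, just short of it at 1.09. At 1.2-fold, in either direction, Psmb9 was the 1 member past the limit, where 5.04% of all genes were. In the authors' deposited table, where 4 genes (0.0186%) passed an adjusted p under 0.05, 0 members did so and 0 had an unadjusted p under 0.05. The lowest unadjusted p among members in the authors' deposited table was 0.554, for Psmb9. Those p-values were recovered by the exact test of edgeR at a dispersion set to 0.04, a spread not measured between replicates. Nr3c1, at a fold of 1.97, did not pass the authors' adjusted p either. That test therefore cannot decide on differences as small as those of the members.

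**Figure D1:**
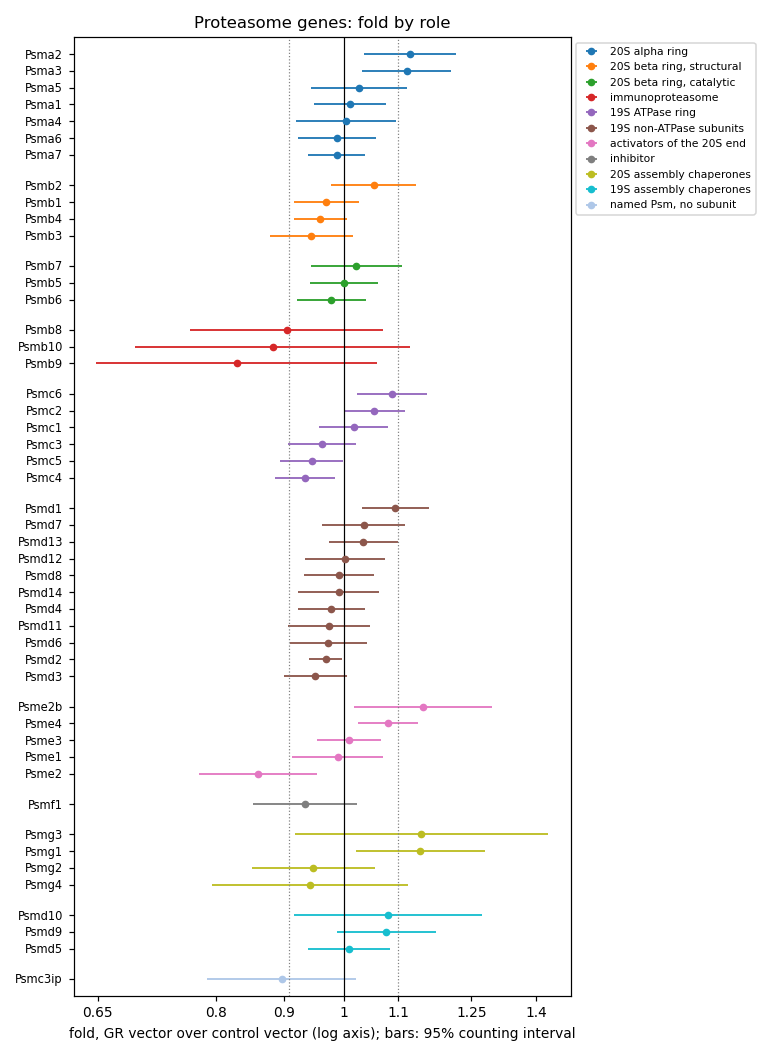
Fold of each of 48 proteasome genes, GR vector over control vector, on a log axis, grouped by role, with bars for the exact 95% counting interval and dotted lines at 1.1-fold either way. Points lie between 0.829 (Psmb9) and 1.15 (Psme2b), and the 3 immunoproteasome subunits lie left of 1 with intervals that reach past 1.

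A second comparison asked only whether the reads of the 2 libraries differ beyond counting error. It was a two-sided exact binomial test with Benjamini-Hochberg adjustment over the 11070 genes, called the library test here. It compares these libraries and not the conditions. It called 1 member higher in the GR library, where 3.48% of all genes were called, and 0 lower, where 2.56% were called. That member was Psmd1, the large scaffold of the 19S base that holds the ubiquitin receptor Adrm1 (chromosome 1, 86064387 to 86139151). It had 2367 reads with the GR vector and 2170 with the control vector, a fold of 1.09 (1.03 to 1.16) with an adjusted p of 0.0454. Its log2 fold was 0.13. Psmd1 did not pass under total-read scaling or median-of-ratios scaling, with log2 folds of 0.13 in each, or with the GC trend removed, with a log2 fold of 0.10.

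**Figure D2:**
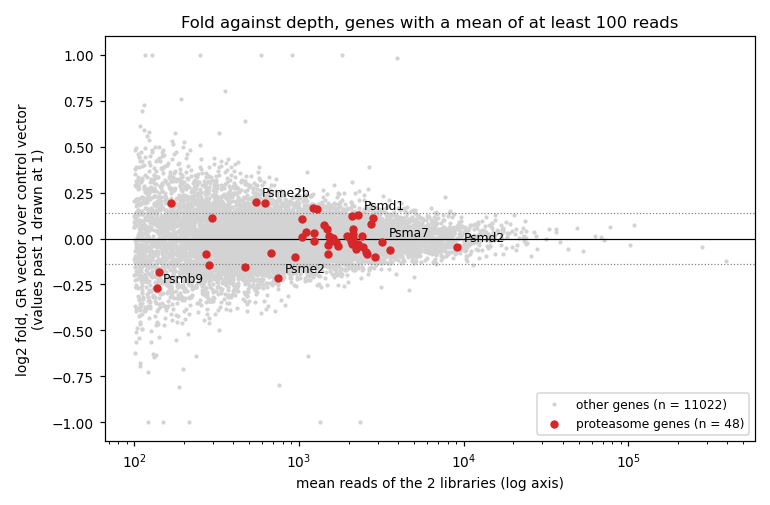
Log2 fold, GR vector over control vector, against the mean reads of both libraries on a log axis, for 48 proteasome genes (red) and the other genes at the same read minimum (grey, values past 1 drawn at 1). Psmd2, the most read member, lies near 0 and the members with fewest reads, such as Psmb9, spread widest, as the grey genes do.

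The alpha subunits form the outer rings of the 20S core and gate the entry of substrates. All 7 of the common alpha genes were well read, with folds from 0.987 to 1.12. Psma2 had 1288 reads with the GR vector and 1151 with the control vector, a fold of 1.12 (1.04 to 1.22). Psma3 had 1359 reads with the GR vector and 1221 with the control vector, also a fold of 1.12 (1.03 to 1.21). These were the only alpha genes past 1.1-fold, and neither passed the library test (exact test, adjusted p of 0.0642 for Psma2 and 0.0722 for Psma3). With the trend over GC content removed, their log2 folds were 0.10 each, under the limit. Psma7, the most read alpha gene, had 3178 reads with the GR vector and 3229 with the control vector (fold 0.987, 0.940 to 1.04). Psma6 had 1662 reads with the GR vector and 1686 with the control vector. The remaining 4 (Psma1, Psma4, Psma5 and Psma6) had folds between 0.989 and 1.03. Psma8, the testis form, was not analysed here.

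The beta subunits form the inner rings. Psmb5, Psmb6 and Psmb7 carry the chymotrypsin-like, caspase-like and trypsin-like activities. Psmb5 had 2136 reads with the GR vector and 2142 with the control vector (fold 1.00, 0.942 to 1.06). Psmb6 had 2086 reads with the GR vector and 2139 with the control vector (fold 0.978, 0.920 to 1.04). Psmb7 had 1250 reads with the GR vector and 1227 with the control vector (fold 1.02, 0.944 to 1.11). All 3 intervals reach from below 1 to above it. The structural genes Psmb1, Psmb2, Psmb3 and Psmb4 had folds of 0.970, 1.05, 0.944 and 0.959. Psmb4 was the most read of these, with 3484 reads with the GR vector and 3642 with the control vector, and Psmb1 had 2392 and 2474 reads in the GR and control libraries. Over the 14 constitutive core genes the summed reads were 25881 with the GR vector and 25936 with the control vector, a fold of 1.00 (0.984 to 1.02).

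The immunoproteasome subunits Psmb8, Psmb9 and Psmb10 replace Psmb5, Psmb6 and Psmb7 in cells exposed to interferon and favour peptides that fit class I antigen presentation. With the chaperones Psmg3 and Psmg4 and Psmb11 they were the least read members. Each of the 3 immunoproteasome subunits had fewer reads with the GR vector. Psmb9 had 124 reads with the GR vector and 150 with the control vector, a fold of 0.829 (0.648 to 1.06). Psmb10 had 132 reads with the GR vector and 150 with the control vector, a fold of 0.883 (0.693 to 1.12). Psmb8 had 268 reads with the GR vector and 297 with the control vector, a fold of 0.905 (0.764 to 1.07). Each interval includes 1, so at this depth no single difference exceeded counting error. Summed, the 3 had 524 reads with the GR vector and 597 with the control vector, a fold of 0.880 (0.781 to 0.992). That interval excludes 1 but covers counting error only and was not adjusted for the number of groups summed. With the GC trend removed, the log2 folds of Psmb8 and Psmb10 were -0.11 and -0.13, inside 1.1-fold, and that of Psmb9 was -0.24. Psmb11, the form of the thymic cortex, had 1 read with each vector, under the limit of 3 reads that a count of 0 allows.

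Set against their constitutive partners, the immunoproteasome forms were a small part of the catalytic transcripts in both libraries. Per base of the deposited gene length, Psmb9 made up 2.95% of the Psmb9 and Psmb6 level with the GR vector (95% interval 2.46% to 3.52%) and 3.46% with the control vector (2.93% to 4.06%). Psmb10 made up 17.5% of the Psmb10 and Psmb7 level with the GR vector (14.9% to 20.2%) and 19.7% with the control vector (17.1% to 22.5%). Psmb8 made up 3.96% of the Psmb8 and Psmb5 level with the GR vector (3.49% to 4.47%) and 4.36% with the control vector (3.87% to 4.89%). At each of the 3 sites the intervals of the libraries overlap. The Psmb10 and Psmb8 shares depend on the length used. Per base of principal transcript the Psmb10 share was 8.54% with the GR vector and 9.76% with the control vector, and the Psmb8 share was 6.48% with the GR vector and 7.11% with the control vector. The Psmb9 share was then 3.39% with the GR vector and 3.98% with the control vector.

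Psmb9 and Psmb8 lie together in the major histocompatibility region of chromosome 17 (34181988 to 34187764 and 34197721 to 34201454), on opposite strands. Psmb9 overlaps its neighbour Tap1, a subunit of the peptide transporter of class I presentation, by 212 bases on the other strand. The sources used here do not say whether counting used strand, so reads there cannot be assigned with certainty. Tap1 had 384 reads with the GR vector and 437 with the control vector (fold 0.881, 0.766 to 1.01). The genes of class I presentation, Tap1 among them, showed no shared direction. Of the 9 read at this depth, 4 had a fold above 1 and 5 below, with a median of 0.977 and 0 called by the library test. The most read, H2-D1, a class I heavy chain, had 4988 reads with the GR vector and 4893 with the control vector, a fold of 1.02 (0.983 to 1.06).

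The 19S regulatory particle held the most reads of the family. Its 17 genes summed to 42738 reads with the GR vector and 43189 with the control vector, a fold of 0.992 (0.979 to 1.01). The 6 ATPase genes had folds from 0.934 for Psmc4 to 1.09 for Psmc6, and 3 lay on each side of 1. Psmc4 had 2786 reads with the GR vector and 2991 with the control vector (0.887 to 0.984 for its fold). Psmc6 had 2175 reads with the GR vector and 2006 with the control vector (1.02 to 1.16 for its fold). Psmc2 had 2823 reads with the GR vector and 2684 with the control vector, and Psmc5 had 2514 and 2668 in the GR and control libraries. With the GC trend removed, the log2 fold of Psmc6 was 0.06, against 0.12 before. That of Psmc4 was -0.07, against -0.10 before. The intervals of Psmc4 and Psmc6 exclude 1, as do those of Psmc2 (1.0002 to 1.1125) and Psmc5 (0.8945 to 0.9983). Yet after adjustment over all genes the exact test gave 0.102 for Psmc4 and 0.0804 for Psmc6. It gave 0.25 for Psmc2 and 0.233 for Psmc5.

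The non-ATPase genes encode scaffolds, ubiquitin receptors and a deubiquitinase. Psmd2, the scaffold of the base on which shuttle factors dock, was the most read member of all, with 9016 reads with the GR vector and 9334 with the control vector (fold 0.969, 0.941 to 0.997). Its exact test gave an adjusted p of 0.201. Psmd4, a ubiquitin receptor, had 2246 reads with the GR vector and 2303 with the control vector (fold 0.978, 0.922 to 1.04). Psmd14, the deubiquitinase of the lid, had 1530 reads with the GR vector and 1549 with the control vector (fold 0.991, 0.922 to 1.06). Psmd11, a lid subunit, had 1482 reads with the GR vector and 1525 with the control vector. Apart from Psmd1, the folds of this group ran from 0.951 for Psmd3 to 1.04 for Psmd7.

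The activators cap the ends of the core in place of the 19S particle. Psme1 and Psme2 form the interferon-inducible PA28 cap of the cytosol, Psme3 forms the nuclear cap, and Psme4 encodes PA200. Psme1 had 1221 reads with the GR vector and 1238 with the control vector (fold 0.989, 0.913 to 1.07). Psme3 had 2434 and 2420 reads with the GR and control vectors (fold 1.01, 0.953 to 1.07). Psme4 had 2920 and 2711 (fold 1.08, 1.02 to 1.14, adjusted p of 0.0577 in the exact test). With the GC trend removed, the log2 fold of Psme4 was 0.05, against 0.11 before. Psmf1, the inhibitor PI31, had 917 reads with the GR vector and 985 with the control vector (fold 0.934, 0.852 to 1.02).

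Psme2 and its intronless copy Psme2b stood on opposite sides of 1. Psme2 (chromosome 14, 55587441 to 55591113) had 693 reads with the GR vector and 808 with the control vector, a fold of 0.860 (0.776 to 0.953). Psme2b (chromosome 11, 48945354 to 48946190) had 586 reads with the GR vector and 512 with the control vector, a fold of 1.15 (1.02 to 1.29). Neither passed the library test (exact test, adjusted p of 0.0577 for Psme2 and 0.171 for Psme2b). Summed, the pair had 1279 reads with the GR vector and 1320 with the control vector, a fold of 0.972 (0.899 to 1.05).

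The coding sequences of the pair, both 720 bases, differ at 5 positions and are 99.3% identical. Counted from 1 at the first base of the start codon, with the base of Psme2 first, the differences are C312T, A369G, C489T, C519T and C543T. Shown are the 90 bases from position 454 to 543 of the annotated GENCODE M21 coding sequences, which hold 3 of these differences, in capitals. No stretch of that length holds more. A short read from the coding sequence outside this window has fewer such differences to tell the copies apart.
Psme2: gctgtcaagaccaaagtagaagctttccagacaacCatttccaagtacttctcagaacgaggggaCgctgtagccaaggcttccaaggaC
Psme2b: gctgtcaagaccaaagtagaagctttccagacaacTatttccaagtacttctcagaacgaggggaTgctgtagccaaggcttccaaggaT
Of the 31-mers (stretches of 31 bases) of Psme2b, 78.4% also occur in another annotated gene, and of those of Psme2, 33.5%. The values of the pair taken one by one are therefore uncertain, and their sum does not depend on how reads were split between them.

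**Figure D3:**
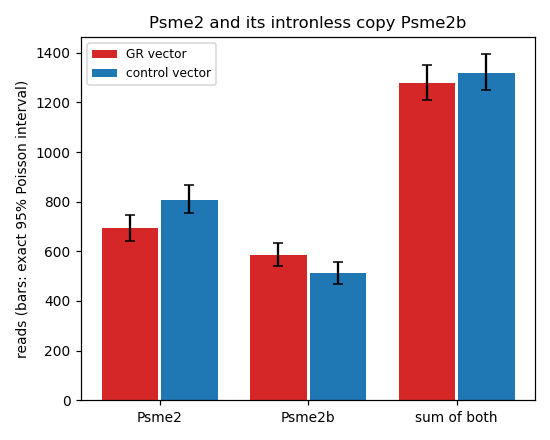
Reads of Psme2, of Psme2b and of both together with the GR vector (red) and the control vector (blue), with exact 95% Poisson intervals as bars. Psme2 is lower and Psme2b higher with the GR vector, and the sums, 1279 and 1320 reads, have overlapping intervals.

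The family has many such copies. In all, 7 members share 25% or more of their 31-mers with another gene, among them Psmb5 (71.7%), Psma5 (61.0%), Psmc1 (32.2%) and Psmd2 (31.6%), and 13 members share none. Not all of this sharing is with copies. Psmd9 (26.6%) shares 25.0% with Gm26745, a noncoding gene that overlaps it on chromosome 5. There were 20 pseudogene copies holding at least 5% of a member's 31-mers, and 10 of them had reads in the table. With its copies counted, Psma5 had a fold of 1.01 (0.931 to 1.09). Psma3 with its copy had 1985 reads with the GR vector and 1808 with the control vector, with an interval of 1.03 to 1.17 for the fold. Also, 15 members overlap another gene of the table, such as Psmb7 with Nek6 on the other strand. Psma2, past 1.1-fold, overlaps AW209491 on the same strand, which had 300 reads with the GR vector and 252 with the control vector.

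Assembly chaperones guide the order in which subunits join. Psmg1 and Psmg2 form one dimer for the alpha ring and Psmg3 and Psmg4 another. Psmg1 had 662 reads with the GR vector and 581 with the control vector, a fold of 1.14 (1.02 to 1.28). Psmg3 had 177 reads with the GR vector and 155 with the control vector, a fold of 1.15 (0.918 to 1.43). Psmg2, the partner of Psmg1, had 656 reads with the GR vector and 694 with the control vector (fold 0.948, 0.851 to 1.06). Psmg4, the partner of Psmg3, had 264 reads with the GR vector and 281 with the control vector (fold 0.942, 0.793 to 1.12). In both dimers, then, one gene lay past 1.1-fold on the higher side and its partner below 1, and 0 of the 4 passed the library test. The 19S chaperones Psmd5, Psmd9 and Psmd10 had folds of 1.01, 1.08 and 1.08, each with an interval that includes 1. With the GC trend removed, their median log2 fold was 0.05, against 0.11 before. Psmd5 had 1527 reads with the GR vector and 1518 with the control vector. Psmd9 had 1087 reads with the GR vector and 1012 with the control vector. Psmd10, also known as gankyrin, had 308 reads with the GR vector and 286 with the control vector.

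Psmc3ip met the name rule but encodes a partner of the meiotic recombinase DMC1 and not a proteasome subunit. It had 441 reads with the GR vector and 493 with the control vector, a fold of 0.897 (0.787 to 1.02). Without it, 4 of 47 members lay past 1.1-fold on the lower side.

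Subunits that enter the particle in equal numbers had transcripts at unequal levels. Levels are given as RPKM, reads scaled to length in kilobases and to library size, with the deposited gene lengths, which count all annotated exons. In the alpha ring Psma6 stood highest, at 72.7 RPKM with the GR vector and 73.7 with the control vector. The lowest alpha gene was Psma3 with the GR vector (18.8 RPKM) and Psma2 with the control vector (16.9 RPKM). The ratio of highest to lowest level was thus 3.86 with the GR vector and 4.36 with the control vector. In the ATPase ring it was 3.21 with the GR vector and 3.59 with the control vector, between Psmc5 and Psmc2. Among non-ATPase genes Psmd2 stood highest, at 121 RPKM with the GR vector and 125 with the control vector, and Psmd11 lowest, at 12.5 and 12.9 RPKM. The constitutive catalytic genes ran from 19.7 RPKM (Psmb7) to 128 (Psmb5) with the GR vector and from 19.3 to 129 with the control vector. The immunoproteasome genes ran from 1.83 RPKM (Psmb9) to 5.29 (Psmb8) with the GR vector and from 2.21 to 5.86 with the control vector.

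The order within a ring depends on the isoform assumed. Per principal transcript, the main isoform marked in the APPRIS annotation, the highest alpha gene was Psma7, at 188 RPKM with the GR vector and 191 with the control vector. The alpha ratio was then 7.86 with the GR vector and 8.94 with the control vector, against Psma2, and the ATPase ratio 1.99 with the GR vector and 2.31 with the control vector. The catalytic genes ran from 58.2 RPKM (Psmb7) to 141 (Psmb6) with the GR vector and from 57.1 to 145 with the control vector. Their ratio was 2.43 with the GR vector and 2.53 with the control vector, against 6.50 and 6.64 with the deposited lengths. Psmd2 and Psmd11 were again the highest and lowest non-ATPase genes, with a ratio of 5.85 with the GR vector and 5.89 with the control vector, against 9.62 and 9.68 with the deposited lengths. Last, the immunoproteasome genes stood at 4.95 to 8.89 RPKM with the GR vector and 5.99 to 9.84 with the control vector.

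**Figure D4:**
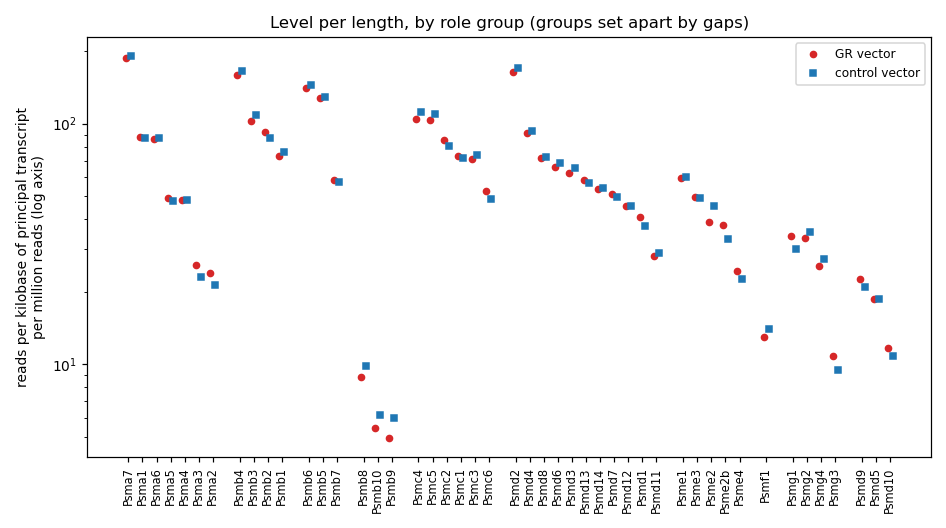
Level of each of 47 proteasome genes in RPKM per principal transcript, on a log axis, with the GR vector (red circles) and the control vector (blue squares), ordered by level within each role group. Psma7 and Psmd2 stand near the top, the 3 immunoproteasome genes lie under 10 in both libraries, and the marks of a gene lie close together.

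Promoters were compared over the 250 bases before the annotated start, from RefSeq on GRCm38.p6, which held 45 promoters for 42 of the 49 members. Letters were searched on both strands, and a match describes the sequence only. The ETS letters CCGGAAG were found in 31.1% of the member promoters and 6.91% of all 32851 promoters. The antioxidant response letters TGACNNNGC, the kind bound by NFE2L1, which drives proteasome genes when the particle is inhibited, were in 11.1% of member promoters and 10.2% of all. The CCAAT box was in 33.3% of member promoters and 33.8% of all. Interferon-response letters, GAAA and GAAA with 2 bases of any kind between them, were in 6.67% of member promoters (Psmb3, Psmd4 and Psmd9) and 2.98% of all. Glucocorticoid-response letters, GNACA and TGTNC with 3 bases of any kind between them, were in 1 member promoter, that of Psme2b, and in 0.387% of all.

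Shown here are the promoters of the catalytic genes Psmb5 and Psmb6, with the antioxidant response letters in capitals. With them are those of Psmd2, the most read member, and Psmg1, past 1.1-fold, with the ETS letters in capitals. Each covers the 120 bases before the start, in the direction of transcription. They lie at chr14:54617996-54618115 (minus strand), chr11:70525237-70525356 (plus), chr16:20651532-20651651 (plus) and chr16:95990961-95991080 (minus), in that order.
Psmb5: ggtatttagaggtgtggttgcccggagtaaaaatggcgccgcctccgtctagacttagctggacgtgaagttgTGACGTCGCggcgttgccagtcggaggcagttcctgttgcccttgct
Psmb6: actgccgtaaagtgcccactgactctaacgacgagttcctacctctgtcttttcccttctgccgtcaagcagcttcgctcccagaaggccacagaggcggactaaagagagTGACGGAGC
Psmd2: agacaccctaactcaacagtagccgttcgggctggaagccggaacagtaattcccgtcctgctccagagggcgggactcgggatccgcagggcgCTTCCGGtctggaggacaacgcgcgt
Psmg1: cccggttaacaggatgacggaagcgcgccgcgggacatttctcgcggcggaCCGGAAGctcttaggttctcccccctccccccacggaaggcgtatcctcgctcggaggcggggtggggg
The antioxidant response letters lie close to the RefSeq start in both catalytic genes, and both genes had folds near 1. The Psmb5 gene that was counted starts at 54618022 on the minus strand, so the last bases of its window lie inside that gene. The Psmb6 gene that was counted starts at 70525367, past the end of its window. In Psmd2 the ETS letters are on the other strand, as CTTCCGG.

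The promoter of Psme2b (chr11:48946411-48946660, minus strand, 250 bases) is shown because it held the 1 match to the glucocorticoid-response letters among the members, in capitals.
Psme2b: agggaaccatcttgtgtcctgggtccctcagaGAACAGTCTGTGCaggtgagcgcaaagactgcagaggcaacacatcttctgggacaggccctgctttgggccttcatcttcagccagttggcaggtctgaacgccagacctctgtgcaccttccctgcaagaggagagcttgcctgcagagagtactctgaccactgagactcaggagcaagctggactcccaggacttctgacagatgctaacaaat
The Psme2b gene that was counted starts at 48946190 on the minus strand, so this window, taken before the RefSeq start, does not adjoin it. The fold of Psme2b alone was 1.15, and with Psme2 counted in it was 0.972, as above. Any link between the match and these folds was not tested.

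Genes that work beside the proteasome were read from further lists. Among 10 other proteasome parts and assembly factors the median fold was 1.00, with 0 past 1.1-fold and 0 past the library test. Adrm1, the ubiquitin receptor RPN13, had 2935 reads with the GR vector and 2950 with the control vector. Ube3c, a ligase that sits on the particle and was the most read of the list, had 3826 and 3682 with the GR and control vectors. Pomp, the maturation factor of the core, had 883 and 857.

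Among 14 shuttle factors and partners of the unfoldase Vcp, the median fold was 1.00 and the library test called 1 higher and 1 lower. Over all genes it called 3.48% higher and 2.56% lower. The gene called higher, Zfand5, has a GC content of 38.2%, and the gene called lower, Ubxn1, 54.4%. Their values with the GC trend removed are not given here. Zfand5, a zinc finger protein that stimulates the proteasome, had 1157 reads with the GR vector and 1021 with the control vector (fold 1.14, 1.04 to 1.24, adjusted p of 0.0487 in the exact test). Ubxn1, a cofactor of Vcp, had 1556 reads with the GR vector and 1753 with the control vector (fold 0.890, 0.831 to 0.954, adjusted p of 0.0215 in the exact test). Vcp, which pulls tagged proteins out of complexes and membranes, had the most reads of the list over both libraries, with 6427 with the GR vector and 6579 with the control vector (fold 0.980, 0.947 to 1.01). Rad23b, a shuttle factor and the most read of the list in the GR library alone, had 6568 reads there and 6323 with the control vector. Its fold was 1.04 (1.01 to 1.08), and it did not pass the library test (exact test, adjusted p of 0.157).

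Among genes for the transcription of the family, Nfe2l1 was well read and level, with 9661 reads with the GR vector and 9607 with the control vector (fold 1.01, 0.980 to 1.04). Of the 11 such genes read at this depth, Mafk, a small MAF partner of the NFE2L factors, was the 1 past the library test. It had 494 reads with the GR vector and 599 with the control vector (fold 0.827, 0.733 to 0.933, adjusted p of 0.0357 in the exact test). Nfyc, a subunit of the CCAAT-binding factor, had 1149 reads with the GR vector and 1280 with the control vector (interval 0.831 to 0.976 for the fold). Ngly1, the glycanase that processes NFE2L1, had 473 and 411 reads with the GR and control vectors (fold 1.15, 1.01 to 1.32). Neither passed. The median fold of the list was 1.02. Over all genes the library test called 2.56% lower. Values with the GC trend removed are not given for this list.

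A last list held 9 genes for ubiquitin, its activating enzymes and mitochondrial proteases, with a median fold of 0.977. Rps27a, which encodes ubiquitin fused to a ribosomal protein, was the 1 past 1.1-fold and the library test, with 1463 reads with the GR vector and 3263 with the control vector (fold 0.450, 0.422 to 0.478). Over all genes the library test called 2.56% lower. Rps27a did not pass the authors' adjusted p. Of its 31-mers, 28.5% also occur in another annotated gene, so its reads are not all its own with certainty. Ubb, the polyubiquitin gene and the most read of the list, had 23322 and 23204 reads with the GR and control vectors. It shares 50.3% of its 31-mers.

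The authors' deposited enrichment report for the GR side includes a proteasome set of 46 genes, whose members the report does not list. With 1 library a group, the p and q values of that report cannot decide whether the set differed. In it the set had an enrichment score of 0.658, a normalized score of 0.996, a nominal p of 0.5 and an FDR q of 0.982. By normalized score it ranked 194 of the 307 sets in the authors' deposited report, whose scores ran from 0.805 to 1.06. The lowest FDR q of any set in that deposited report was 0.877, and the nominal p took only the values 0 and 0.5.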

How the data were processed

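The authors deposited a signal per gene and library, which is read counts scaled by 1 step per library. Every value was a whole multiple of that step (100% within 0.01 reads), so whole reads were recovered. The count test on these reads (edgeR 4.0.16, exact test, preset dispersion 0.04) called 4 genes, and its p-values differed by at most 4.5e-08 from the p-values that the authors deposited. The log2 fold changes in the table, and the enrichment scores with their p-values and q-values, are also as the authors deposited them. Per the submitters' processing notes, DESeq2 1.10.1 was used. No aligner, counter, strand setting or build is stated in the sources used here. Coordinates are those of the deposited table and equal GENCODE M21 (GRCm38) for 48 of 49 members.

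Library sizes were scaled by TMM (factors 1.00 for both). Genes needed a mean of at least 100 reads. GC content, principal transcripts and shared 31-mers came from GENCODE M21, trends from lowess (statsmodels 0.14.6), binomial tests from scipy 1.17.1. Depth was 18525668 and 18537326 reads in the GR and control libraries. Genes named with reads were, in each role group, those with the most and fewest reads per kilobase, members past 1.1-fold, just beside it, past the library test or under the read minimum, the catalytic, immunoproteasome and activator genes, Psma7 and Psmf1. From other lists they were the most read gene, over both libraries or in 1 of them, and those past 1.1-fold or the library test. The values of 1 gene of the class I list are not reported here. Psmd4, Psmd14, Adrm1, Pomp and Ins2, named for their roles, and the principal transcripts were chosen after their values were seen. The members and lists were chosen with earlier results of these data known. No sample columns were left unmapped (0).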

Additional observations from a re-analysis of the deposited data

How the results depend on the processing

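The median log2 fold of the members stayed between -0.02 and 0.00 under total-read or median-of-ratios scaling, no read minimum, a minimum of 1000 reads, a removed GC or GC and length trend, and without members sharing 25% or more of their 31-mers. The library test called 0 members higher under total-read scaling, median-of-ratios scaling, no read minimum and both removed trends, and 4 (Psma2, Psma3, Psmd1 and Psme4) of 36 with a minimum of 1000 reads, where 7.73% of the 4867 genes tested were called higher. It called 0 lower under each of these. Over all genes it called 135 higher and 110 lower with the GC trend removed, and 127 and 111 with the GC and length trend removed, against 385 and 283 with neither. Past 1.1-fold there were 2 members higher and 0 lower with a minimum of 1000 reads, which leaves out the immunoproteasome genes, where 4.11% and 2.98% of all genes were higher and lower. There were 3 higher and 3 lower with either trend removed, where the shares of all genes were 9.0% and 9.3% for GC and 9.03% and 9.21% for GC and length. At 1.2-fold there were 0 higher and 1 lower. The signs of 8 members turned with the GC trend removed, none of them past a log2 fold of 0.031 in size. Alternatives chosen after seeing the data gave 5 higher and 4 lower past 1.1-fold without Psmc3ip, and 4 and 4 with Psme2 and Psme2b as 1 gene. Without Psmc3ip the library test called 1 higher and 0 lower; it was not run with that pair as 1 gene. Leaving out a replicate could not be run with 1 library a group. No paired analysis was possible because each group has 1 library. Folds of genes with few reads are limited by depth.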
